A study of Mus musculus with 8 samples.

Results

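Circadian clock transcripts were read out in RNA from hand-picked mouse pancreatic islets, the endocrine clusters in which beta cells make insulin. The genes were chosen by name: the activators Arntl and Clock, the period genes Per1, Per2 and Per3, the cryptochromes Cry1 and Cry2, the REV-ERB receptors Nr1d1 and Nr1d2, and the output factor Dbp. These are 10 of the 20715 genes listed, and each of the 10 had a value in each library and passed the filter on low values. The groups were 4 libraries of ob/ob islets and 4 of ob/+ islets, from C57BL/6 mice aged 12 weeks. The ob allele is a mutation of Lep, the gene of the fat cell hormone leptin. Animals with 2 such copies lack leptin and are a standard model of obesity with insulin resistance. The ob/+ mice carried the allele as well, in 1 copy. The labels give neither sex, nor the hour of islet isolation, nor a lighting schedule, nor whether libraries came from different mice. All p-values therefore rest on library-to-library spread, and some of that may be technical.

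The clock is a loop of transcription that takes about a day in almost every cell. ARNTL (also known as BMAL1) and CLOCK bind E-boxes as a pair and switch on the Per, Cry and Nr1d genes and Dbp. PER and CRY proteins then block that pair. REV-ERB proteins repress Arntl through the ROR element, a site that the ROR receptors use to activate it, so Arntl transcripts are known to peak when those of the REV-ERB genes and Dbp are low. DBP and its relatives TEF and HLF activate genes through the D-box, and NFIL3 represses through the same site. In mouse beta cells, loss of Arntl or Clock is known to impair insulin release in response to glucose.

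Promoter sequences of the loop were searched for the motifs through which its factors are known to act. They come from the RefSeq annotation of GRCm38.p6, whose table holds 250 bases before and 50 bases after each transcript start, and 9 of the 10 clock genes (all but Per2) and 10 of 11 other loop factors matched it by symbol. The E-box was searched as CACGTG, the D-box as TTATGTAA and the ROR element as TAGGTCA, each on both strands, and no matches overlapped in these genes. An E-box was found for 2 of the 9 matched clock genes (Per1 and Cry1), a D-box for Per3 and a ROR element for Arntl. Among the other loop factors an E-box was found for Bhlhe41, Ciart and Tef, a D-box for Timeless and a ROR element for Nfil3. Of 32851 windows of the same length over all genes, 7.15% held the E-box, 0.938% the D-box and 2.61% the ROR element. These shares are per window, while the matches above are per gene, and some genes, such as Arntl and Clock, have several windows. A match is a description of letters, not a bound site. The sequences below are shown because their motif is one of the 3 and because they stand on both sides of the comparison: Nfil3 rose and Arntl had a higher mean in ob/ob islets, and Per3 and Tef fell. They were thus picked by direction, and a link of motif to direction was not tested. Among the other genes with an E-box, Bhlhe41 fell, while Per1, Cry1 and Ciart were not called. None of the motifs was found for Nr1d1, Nr1d2 and Dbp. Capitals mark the motif. Arntl is shown as 30 bases within the first 50 transcribed bases of one of its annotated starts (chr7:113207530-113207559, plus strand). The others are the 250 bases before a RefSeq start, for Nfil3 at chr13:52981040-52981289 (minus strand, with the ROR element read on the other strand), for Per3 at chr4:151044666-151044915 (minus strand, with 2 D-boxes) and for Tef at chr15:81802423-81802672 (plus strand). A second Tef window, at chr15:81811164-81811413, also held an E-box and is not printed. In the GENCODE M21 annotation Nfil3 reaches to 52981073 and Tef begins at 81802421. The Nfil3 motif and the printed Tef bases thus lie within the GENCODE genes.

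Arntl: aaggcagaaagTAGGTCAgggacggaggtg
Nfil3: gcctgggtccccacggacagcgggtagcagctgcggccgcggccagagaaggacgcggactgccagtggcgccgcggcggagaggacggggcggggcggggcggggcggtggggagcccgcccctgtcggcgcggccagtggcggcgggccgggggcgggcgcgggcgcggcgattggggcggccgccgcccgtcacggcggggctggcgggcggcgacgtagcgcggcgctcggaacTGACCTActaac
Per3: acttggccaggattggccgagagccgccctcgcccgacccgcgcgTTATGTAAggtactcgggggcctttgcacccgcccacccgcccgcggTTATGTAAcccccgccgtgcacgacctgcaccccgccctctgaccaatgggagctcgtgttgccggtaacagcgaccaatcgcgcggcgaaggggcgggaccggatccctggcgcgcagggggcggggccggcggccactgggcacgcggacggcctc
Tef: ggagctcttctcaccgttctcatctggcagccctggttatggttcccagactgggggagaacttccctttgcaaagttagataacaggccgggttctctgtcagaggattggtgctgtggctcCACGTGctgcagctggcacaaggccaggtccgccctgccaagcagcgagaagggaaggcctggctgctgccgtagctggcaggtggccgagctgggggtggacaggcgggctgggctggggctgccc

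Values are FPKM, fragments scaled to transcript length and library size. Levels of different genes are therefore compared per length, and absolute depth is unknown. Summed FPKM ran from 920734 to 1004230 in ob/ob and from 820968 to 880570 in ob/+ libraries. Listed acinar genes, of the enzyme-making cells around the islets, took 3.26% to 11.4% of that sum in ob/ob and 7.48% to 25.4% in ob/+, with ob/+ 4 at the top; 1 of the 40 tested rose and 1 fell. In ob/+ 4 the median tested gene stood at 6.45 FPKM, against 8.30 to 8.50 in the other ob/+ libraries and 7.12 to 7.99 in ob/ob. Among the listed markers, 5 of 6 alpha cell genes fell and 1 rose, with a summed level of 8666 to 12040 FPKM in ob/ob, against 25250 to 31790 in ob/+. All 5 delta and PP cell genes fell. Of the 8 beta cell markers 2 rose and 3 fell, and they summed to 586100 to 708400 FPKM in ob/ob, against 396200 to 498000 in ob/+. Of the duct markers 3 of 7 rose, of the fibroblast and pericyte markers 2 of 9 rose and 3 fell, and none of 9 macrophage and 9 endothelial markers was called by limma. By the same test 10.6% of all tested genes were called lower and 8.21% higher. No marker in these lists was at 0 throughout. In bulk islets, fewer cells of a type and less RNA per cell cannot be told apart, and the part of these cell types in the clock results was not tested. Lep, the mutated gene, had no value in any library.

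In the comparison of ob/ob with ob/+ islets, 2 of the 10 clock genes were called, a share near the 18.8% called over all tested genes. Per3 and Nr1d2 fell in ob/ob islets, to 0.346 and 0.556 of their ob/+ means. Dbp and Nr1d1 were also below ob/+ in each ob/ob library, at 0.352 and 0.727 of the ob/+ mean, but did not pass the test. Arntl stood at 1.98 times its ob/+ mean and did not pass either. Clock, Per1, Per2, Cry1 and Cry2 overlapped between the groups.

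By limma on log2(FPKM + 1) with Benjamini-Hochberg adjusted p under 0.05, 2 of the 10 clock genes were called, both lower, where 18.8% of 11747 tested genes were called and 10.6% were called lower. The groups did not overlap for 4 of the 10, all lower, where 10.7% of tested genes lay wholly lower, 9.75% wholly higher and 20.5% apart in either direction. No clock gene was called higher, and Arntl had an unadjusted limma p of 0.0346. The median log2 fold change of the 10 was -0.22, against -0.07 over all tested genes. Leaving out ob/+ 4, the library richest in acinar transcripts, raised the called clock genes to 6 (1 higher, 5 lower). In that fit 4832 of 11612 tested genes were called (1104 higher, 3728 lower). Without ob/+ 1 there were 4 called clock genes, where 1434 of 11562 tested genes were called. Without both ob/+ 4 and ob/ob 1 there were 5, where 4000 of 11513 tested genes were called.

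**Figure D1:**
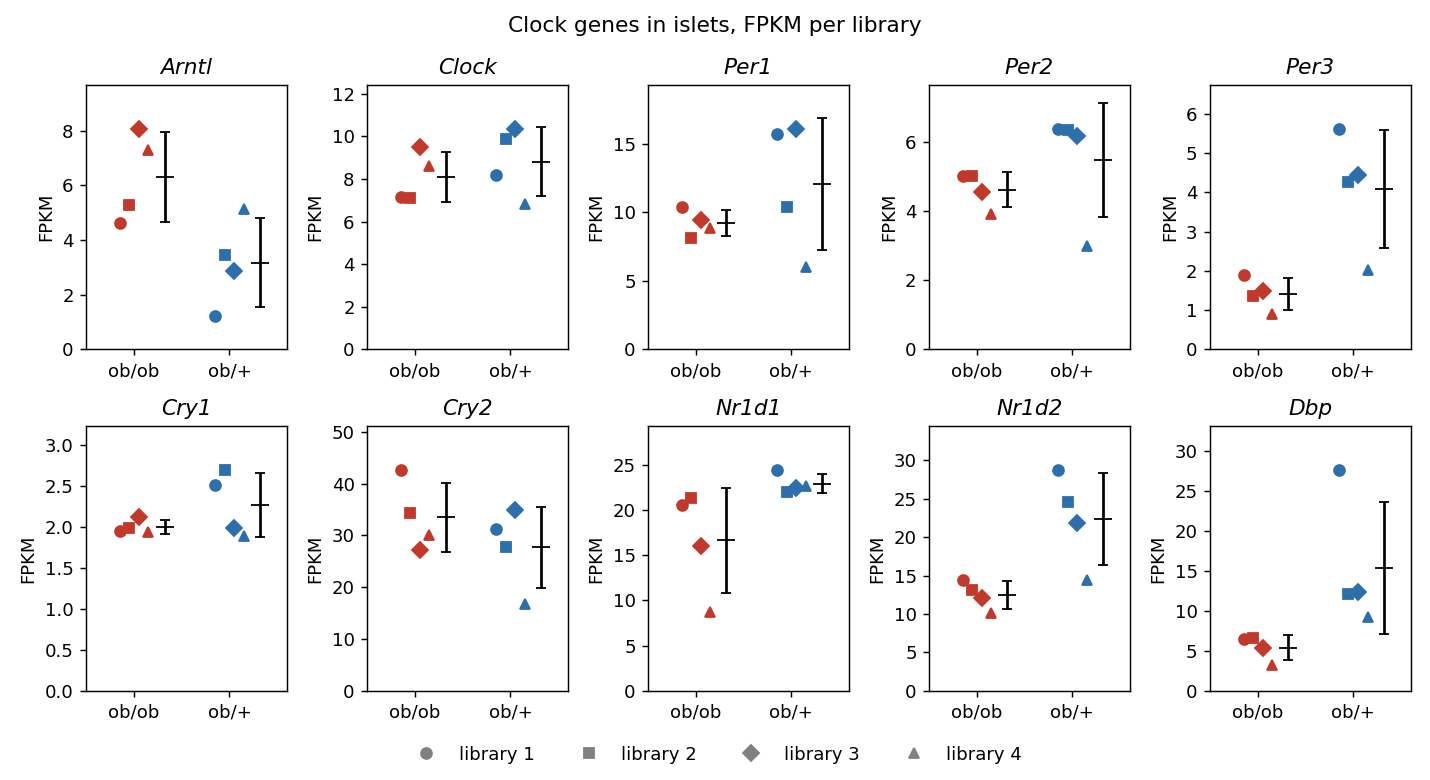
FPKM of the 10 clock genes in each library, with a panel per gene, ob/ob left and ob/+ right, symbols for the library numbers and black bars for the mean ± SD of 4 libraries. Per3, Nr1d1, Nr1d2 and Dbp are lower in every ob/ob library than in any ob/+ library, while the groups overlap for the other 6 genes.

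Among the activators, Arntl (GRCm38 chromosome 7, 113207465 to 113314126, plus strand) was at 4.61, 5.27, 8.06 and 7.28 FPKM in ob/ob 1 to 4, against 1.22, 3.47, 2.87 and 5.15 FPKM in ob/+ 1 to 4. The groups met only at the edge, where ob/+ 4 lay above ob/ob 1 and just below ob/ob 2. The means were 6.30 ± 1.63 FPKM in ob/ob, against 3.18 ± 1.62 in ob/+ libraries (SD, n = 4 each), and the log2 fold change was 0.87 ± 0.33 (SE, limma adjusted p = 0.125). This difference passed the test in 5 of 21 alternatives. Among them were the fits without ob/+ 1 (log2 fold change 0.60, limma adjusted p = 0.0406) and without ob/+ 4 (1.09, limma adjusted p = 0.0354). Those fits called 799 of 11562 and 1104 of 11612 tested genes higher. Clock, the partner of ARNTL, ran from 7.12 to 9.50 FPKM in ob/ob, against 6.83 to 10.35 in ob/+, with a log2 fold change of -0.10 ± 0.13 (SE, limma adjusted p = 0.639). Its sign turned to a value near 0 (0.0046) where the scaling ignored the 10 most abundant genes.

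The period genes, whose proteins close the loop by inhibition, divided. Per3 (chromosome 4, 151003652 to 151044665, minus strand) fell, with 1.89, 1.36, 1.48 and 0.91 FPKM in ob/ob 1 to 4, against 5.61, 4.25, 4.43 and 2.01 FPKM in ob/+ 1 to 4. The highest ob/ob library lay just under ob/+ 4, and the other 3 ob/+ libraries were well above. The log2 fold change was -1.03 ± 0.22 (SE, limma adjusted p = 0.00819), and the call held in each of 21 alternatives, with adjusted p up to 0.0395. Per1, which also responds to stress hormones and cAMP within the hour, was at 9.20 ± 0.94 FPKM in ob/ob, against 12.0 ± 4.79 in ob/+ libraries (SD, n = 4 each). Its log2 fold change was -0.27 ± 0.29 (SE, limma adjusted p = 0.572). Per2 was at 4.63 ± 0.52 FPKM in ob/ob, against 5.48 ± 1.65 in ob/+ libraries (SD, n = 4 each; -0.16 ± 0.17 SE, limma adjusted p = 0.559). For both genes ob/+ 4 was the lowest of all 8 libraries. The other 3 ob/+ libraries lay above each ob/ob library for Per2, and all but ob/+ 2 did so for Per1. Of 21 alternatives, Per1 was called in 2 and Per2 in 3. Without ob/+ 4 both passed as lower in ob/ob, Per1 with a log2 fold change of -0.54 (limma adjusted p = 0.00843) and Per2 with -0.38 (limma adjusted p = 0.00442). In that fit 3728 of 11612 tested genes were called lower, and the median log2 fold change over all of them was -0.15.

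The cryptochromes, the main repressors of the ARNTL and CLOCK pair, did not pass the test. Cry2 was the most abundant of the 10 genes, at 33.5 ± 6.70 FPKM in ob/ob, against 27.7 ± 7.81 in ob/+ libraries (SD, n = 4 each; log2 fold change 0.30 ± 0.24 SE, limma adjusted p = 0.446). The ob/+ libraries ran from 16.8 FPKM in ob/+ 4 to 35.0 in ob/+ 3, a range that holds each ob/ob library but ob/ob 1, at 42.6 FPKM. The sign of the Cry2 difference turned (-0.036) without ob/+ 4 and ob/ob 1. Cry1 was low, with 1.94 to 2.12 FPKM in ob/ob, against 1.89 to 2.69 in ob/+ (log2 fold change -0.12 ± 0.12 SE, limma adjusted p = 0.555). Cry2 shares 295 exonic bases (4.67% of its own) with the noncoding D930015M05Rik on the opposite strand, and Arntl 33 (0.439%) with the antisense Gm45355.

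Of the REV-ERB genes, repressors of Arntl, 1 was called. Nr1d2 (chromosome 14, 18204054 to 18239127, minus strand) fell, with 14.4, 13.2, 12.1 and 10.1 FPKM in ob/ob 1 to 4, against 28.7, 24.5, 21.8 and 14.5 FPKM in ob/+ 1 to 4. The gap between the groups was as thin as 14.44 in ob/ob 1 against 14.47 in ob/+ 4, and wide for the other ob/+ libraries. Its log2 fold change was -0.77 ± 0.18 (SE, limma adjusted p = 0.00812), called in each of 21 alternatives with adjusted p up to 0.0293. Nr1d1 (chromosome 11, 98767932 to 98775333, minus strand) was at 20.6, 21.4, 16.0 and 8.71 FPKM in ob/ob 1 to 4, against 24.4, 22.0, 22.5 and 22.7 FPKM in ob/+ 1 to 4. The ob/+ libraries were close to each other, ob/ob 1 and 2 lay just under them, and ob/ob 4 was far lower. The log2 fold change was -0.51 ± 0.26 (SE, limma adjusted p = 0.226), and without ob/ob 4 it was -0.24 (limma adjusted p = 0.213). Nr1d1 shares 263 exonic bases (8.55% of its own) with Thra, a thyroid hormone receptor gene on the opposite strand. Thra itself fell in ob/ob (log2 fold change -0.56, limma adjusted p = 0.00103), and without a stated strand setting reads from the shared bases cannot be told apart.

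Dbp (chromosome 7, 45705088 to 45710203, plus strand), the output factor, was at 6.43, 6.57, 5.37 and 3.25 FPKM in ob/ob 1 to 4, against 27.6, 12.1, 12.4 and 9.29 FPKM in ob/+ 1 to 4. Each ob/+ library was above each ob/ob library, and ob/+ 1 was far above the other 3. The log2 fold change was -1.27 ± 0.36 (SE) and missed the threshold (limma adjusted p = 0.0585). It passed in 9 of 21 alternatives, among them without ob/+ 1 (log2 fold change -0.96, limma adjusted p = 0.00124) and without ob/+ 4 (-1.45, limma adjusted p = 0.0304). The fits without these libraries called 635 of 11562 and 3728 of 11612 tested genes lower. Dbp shares 539 exonic bases (18.0% of its own) with Sphk2 on the opposite strand, a sphingosine kinase gene at 12.2 FPKM in ob/ob, against 13.6 in ob/+ (limma adjusted p = 0.406).

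**Figure D2:**
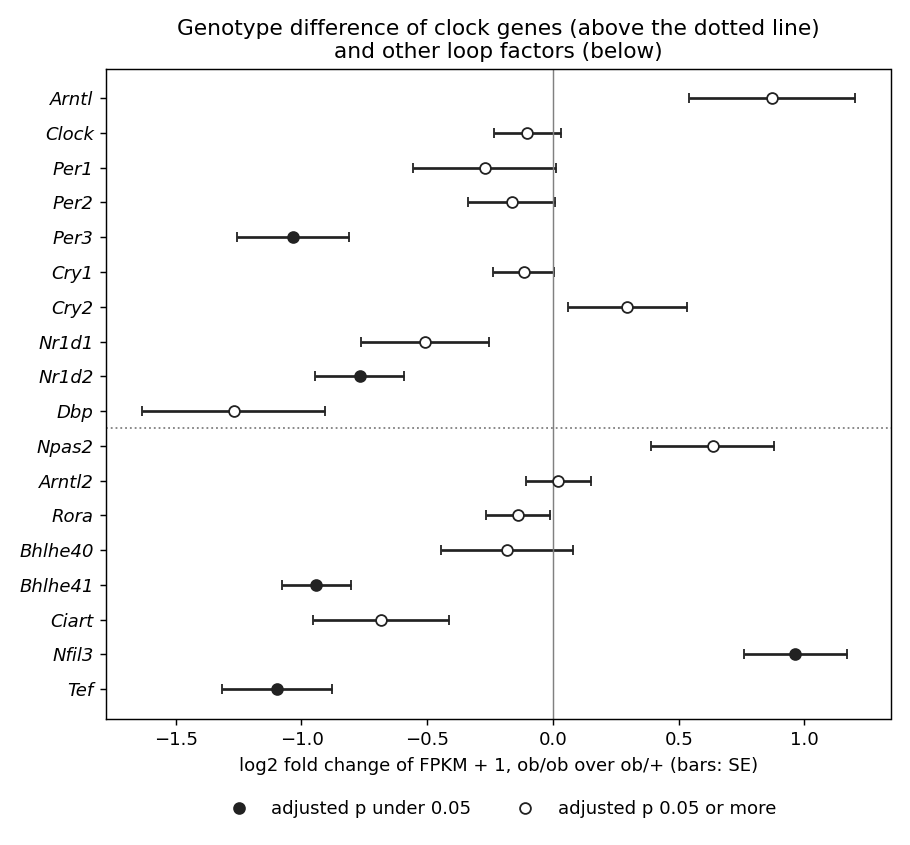
Log2 fold change of FPKM + 1, ob/ob over ob/+, with SE bars, for the 10 clock genes above the dotted line and 8 tested loop factors below it; filled points have a limma adjusted p under 0.05. Per3, Nr1d2, Bhlhe41 and Tef are filled on the left of 0 and Nfil3 on the right, while Arntl and Npas2 lie on the right unfilled.

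Cry2 had the highest mean in both genotypes. In ob/ob, Cry2 led with a mean of 33.5 FPKM, above the range of Nr1d1 at 16.7, and Cry1 at 2.0 and Per3 at 1.41 were the lowest, each with a range below that of the gene before it. The genes between, Nr1d1, Nr1d2, Per1, Clock, Arntl, Dbp and Per2, overlapped neighbour by neighbour. In ob/+, Cry2 at 27.7, Nr1d1 at 22.9 and Nr1d2 at 22.4 FPKM overlapped in range. Dbp at 15.3, Per1 at 12.0 and Clock at 8.81 followed, each overlapping the gene before it. Per2 at 5.48 lay below the range of Clock, and Per3 at 4.07, Arntl at 3.18 and Cry1 at 2.27 each overlapped the next. Arntl was thus ranked 6 of 10 in ob/ob and 9 in ob/+, and Dbp 7 in ob/ob and 4 in ob/+. These ranks are by mean, and both genes overlapped their neighbours in range in both genotypes.

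The ratio of FPKM of 2 genes within a library does not depend on how that library was scaled. The ratio of Arntl to Dbp was 0.717, 0.802, 1.5 and 2.24 in ob/ob 1 to 4, against 0.0442, 0.287, 0.232 and 0.554 in ob/+ 1 to 4. Each ob/ob library was above each ob/+ library, and ob/+ 1 was the lowest by far. The ratio of Arntl to Per3 was 2.44, 3.88, 5.45 and 8.0 in ob/ob 1 to 4, against 0.217, 0.817, 0.648 and 2.56 in ob/+ 1 to 4, so that ob/+ 4 lay above ob/ob 1. The ratios to Nr1d1 and Nr1d2 overlapped in the same way, by ob/+ 4 alone, with 0.223 in ob/ob 1 against 0.226 in ob/+ 4 for Nr1d1 and 0.319 in ob/ob 1 against 0.356 in ob/+ 4 for Nr1d2. The mean log2 ratio of FPKM was higher in ob/ob by 2.55 for Dbp, 2.61 for Per3, 1.67 for Nr1d1 and 1.94 for Nr1d2. With 1 added to each FPKM, which makes the ratio depend on the scaling, these differences were 2.14, 1.90, 1.38 and 1.64. These ratios combine the genes already described and carry no test of their own.

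**Figure D3:**
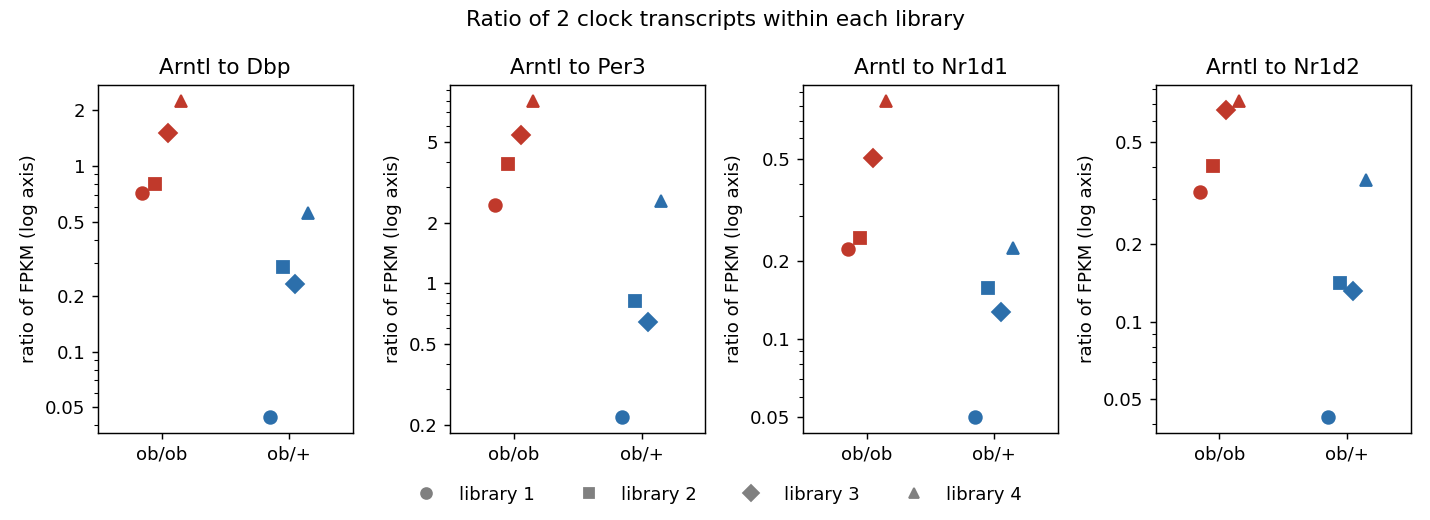
Ratio of Arntl FPKM to that of Dbp, Per3, Nr1d1 and Nr1d2 within each library, on log axes, with ob/ob left and ob/+ right and symbols for the library numbers. All 4 panels have ob/ob 4 highest and ob/+ 1 lowest, and ob/+ 4 reaches the lowest ob/ob library in 3 of them.

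The spread between libraries of a genotype was wide for most clock genes. The pooled within-group SD of log2(FPKM + 1) was 0.529 for Dbp, 0.492 for Arntl, 0.437 for Per1 and 0.396 for Nr1d1, where the median over all tested genes was 0.166. Set against the 500 tested genes nearest in level, 8 of the 10 clock genes lay above the 90th percentile, from 95.8 for Per2 to 99.0 for Dbp and Per1. The exceptions were Clock at the percentile of 76.4 and Cry1 at 15.2. The SD was larger in ob/+ than in ob/ob for 9 of the 10 genes, as it was for 71.8% of all tested genes. Nr1d1 was the exception, with an SD of 0.557 in ob/ob and 0.0621 in ob/+. These percentiles describe the libraries and were not tested.

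**Figure D4:**
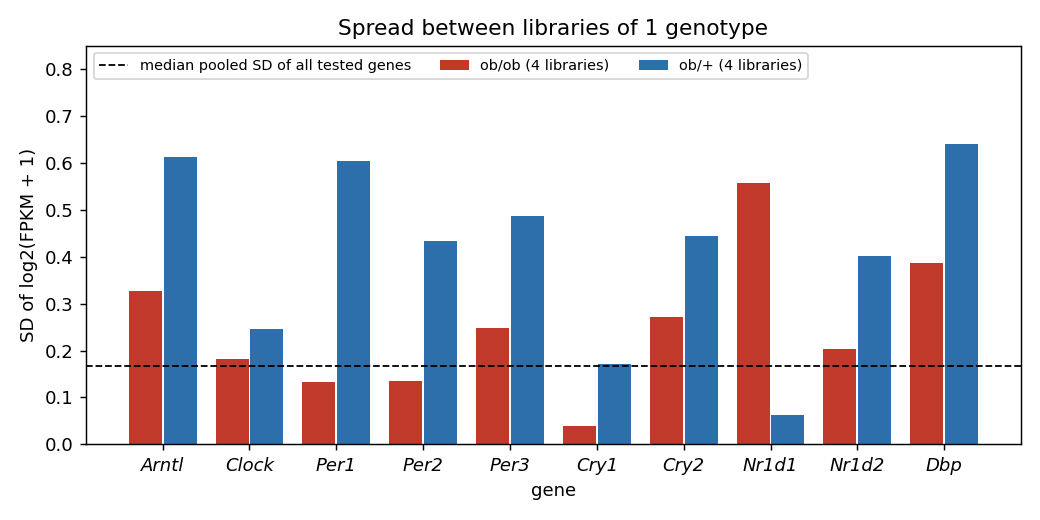
SD of log2(FPKM + 1) over the 4 libraries of each genotype for each clock gene, ob/ob left and ob/+ right in each pair of bars, with a dashed line at the median pooled SD of all tested genes (0.166). The ob/+ bar is the taller for each gene but Nr1d1, and Cry1 has the shortest ob/ob bar.

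The same libraries stood at the ends of several genes. Of the 4 ob/+ libraries, ob/+ 1 was the highest for 5 clock genes (Per2, Per3, Nr1d1, Nr1d2 and Dbp) and the lowest for Arntl. Library ob/+ 4 was the lowest for 8 of the 10 genes and the highest for Arntl. The median tested gene was also lowest in ob/+ 4, at 6.45 FPKM, against 8.30 to 8.50 in the other ob/+ libraries. The share of all tested genes at these ends was not counted, so the counts are not shown to be particular to clock genes. In ob/ob, library 4 was the lowest for 6 genes (Per2, Per3, Cry1, Nr1d1, Nr1d2 and Dbp), while its Arntl level was the second of the 4. In units of log2(FPKM + 1) relative to its own mean over 8 libraries, Dbp stood at -1.19 in ob/ob 4 and at 1.56 in ob/+ 1, and Arntl at 0.64 in ob/ob 4 and at -1.26 in ob/+ 1.

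**Figure D5:**
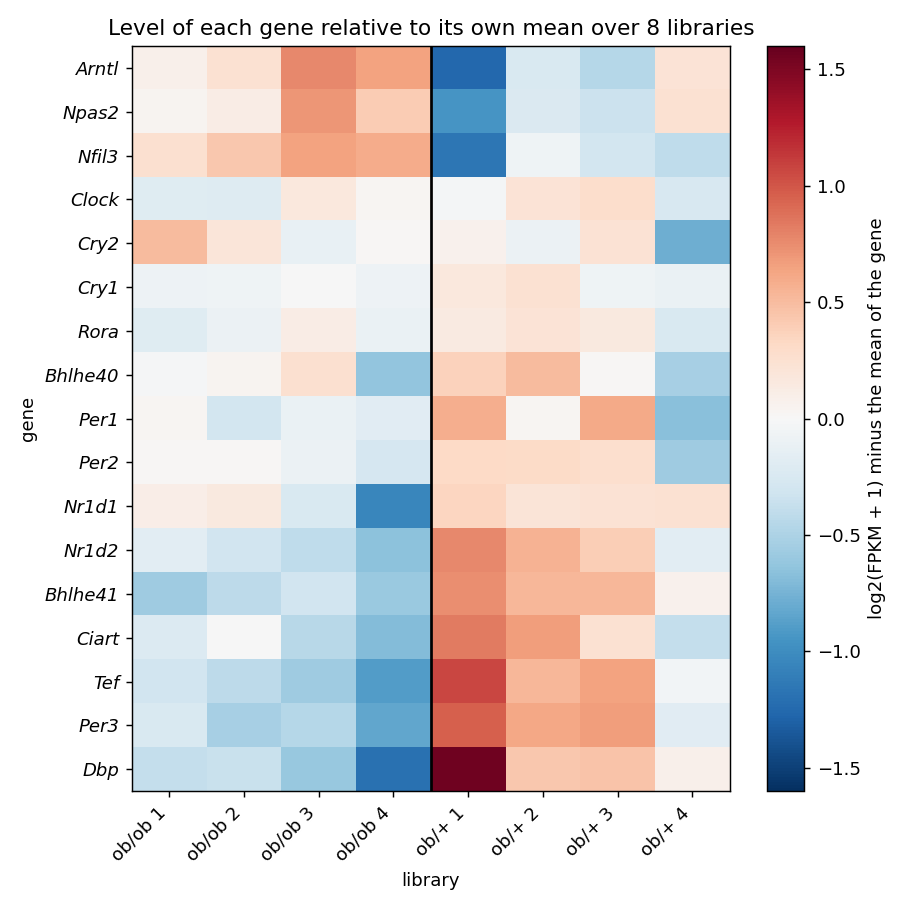
Level of clock genes and other loop factors in each library as log2(FPKM + 1) minus the mean of the gene over 8 libraries, with ob/ob columns left of the black line, ob/+ columns right, red above the mean and blue below. Arntl, Npas2 and Nfil3 at the top are mostly red in ob/ob and deepest blue in ob/+ 1, and the rows from Nr1d2 down to Dbp are blue or pale in ob/ob and reddest in ob/+ 1.

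Of 11 other loop factors described here, 8 were tested, 2 fell (Tef and Bhlhe41) and 1 rose (Nfil3). Of all tested genes, 10.6% were called lower and 8.21% higher. Tef, the PAR bZIP relative of Dbp, was at 8.44, 7.70, 6.87 and 5.27 FPKM in ob/ob 1 to 4, against 23.4, 15.9, 17.2 and 10.3 FPKM in ob/+ 1 to 4. The groups did not overlap, and the log2 fold change was -1.10 ± 0.22 (SE, limma adjusted p = 0.00568). Bhlhe41 (DEC2), a repressor at E-boxes, was at 3.93 ± 0.47 FPKM in ob/ob, against 8.57 ± 1.78 in ob/+ libraries (SD, n = 4 each), again with no overlap (-0.94 ± 0.14 SE, limma adjusted p = 1.54e-05). Hlf, the other PAR bZIP gene, was below the filter, at 0.60 to 0.85 FPKM in ob/ob, against 0.97 to 2.26 in ob/+. It was called lower where the filter was set at 0.1 FPKM (log2 fold change -0.61 ± 0.14 SE, limma adjusted p = 0.00498).

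Nfil3, the repressor at D-boxes that carries the ROR element printed above, was at 10.5, 12.0, 13.9 and 13.5 FPKM in ob/ob 1 to 4, against 3.29, 8.17, 6.84 and 6.22 FPKM in ob/+ 1 to 4. All ob/ob libraries were higher, with ob/+ 1 lowest of the 8 as for Arntl (log2 fold change 0.96 ± 0.20 SE, limma adjusted p = 0.00591). The call of Nfil3 ended at 0.92 with the acinar level as covariate (limma adjusted p = 0.0598) and at 1.06 without ob/+ 4 and ob/ob 1 (0.0644). Npas2, which can stand in for CLOCK, was at 2.20 ± 0.69 FPKM in ob/ob, against 1.12 ± 0.69 in ob/+ libraries (SD, n = 4 each). Its log2 fold change was 0.64 ± 0.25 (SE, limma adjusted p = 0.111). It passed in 5 of 21 alternatives, among them without ob/+ 4 (limma adjusted p = 0.00879). Ciart (CHRONO), a repressor of the ARNTL and CLOCK pair, was at 0.54 to 1.47 FPKM in ob/ob, against 0.92 to 3.42 in ob/+ (-0.68 ± 0.27 SE, limma adjusted p = 0.126). It passed in 7 of 21 alternatives, among them without ob/+ 4 as well (limma adjusted p = 9.95e-04). The fit without ob/+ 4 called 1104 of 11612 tested genes higher and 3728 lower.

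The remaining loop factors overlapped between the groups or were scarce. Rora, an activator at ROR elements, was at 6.21 ± 0.67 FPKM in ob/ob, against 6.97 ± 1.07 in ob/+ (SD, n = 4 each). Its log2 fold change was -0.14 ± 0.13 (SE, limma adjusted p = 0.492). It passed as lower in 2 of 21 alternatives. Among them was the fit without ob/+ 4 (limma adjusted p = 0.0433), where 3728 of 11612 tested genes were called lower. Bhlhe40 (DEC1) was at 4.51 ± 1.32 FPKM in ob/ob, against 5.33 ± 1.84 in ob/+ and Arntl2 at 0.97 ± 0.26 in ob/ob and 0.94 ± 0.21 in ob/+ libraries (SD, n = 4 each; limma adjusted p = 0.685 and 0.931). Rorb was at most 0.04 FPKM in ob/ob, against 0.07 in ob/+. Timeless, below the filter too, ran from 0.55 to 0.79 FPKM in ob/ob, against 0.82 to 0.97 in ob/+.

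The genes nearest to Arntl and to Dbp across the 8 libraries included 3 loop factors. Likeness was the root mean square difference of log2(FPKM + 1), each gene taken relative to its own mean, among 11431 tested genes outside the 10 and without predicted genes. Npas2 was the nearest to Arntl (0.152), followed by Ppp1r3c (0.217), a subunit that directs a phosphatase to glycogen, and Nfil3 (0.262). Tef was the nearest to Dbp (0.224), followed by the stress-inducible Gadd45b (0.273) and the tubulin gene Tubb3 (0.311). In the same fit Ppp1r3c rose in ob/ob (4.56 ± 1.62 FPKM, against 1.85 ± 0.64 in ob/+) and Gadd45b fell (7.88 ± 1.37 FPKM in ob/ob, against 20.4 ± 5.91 in ob/+; SD, n = 4 each). Tubb3 fell likewise (10.2 ± 1.99 FPKM in ob/ob, against 22.0 ± 3.49 in ob/+). The genotype difference is part of the profiles by which these genes were chosen. Their rise or fall follows from that choice and is no separate result.

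Genes that act on clock proteins or on the loop from outside were listed as well. Of 16 kinases, ubiquitin ligases and cofactors of clock proteins, all tested, 2 fell and none rose by limma, where 10.6% of all tested genes were called lower and 8.21% higher. The median log2 fold change was -0.05. Nampt, which makes the NAD that feeds the deacetylase SIRT1 and whose transcript follows the clock in mouse liver, fell to 5.32 ± 0.59 FPKM in ob/ob, against 8.46 ± 1.11 in ob/+ libraries (SD, n = 4 each; -0.58 ± 0.12 SE, limma adjusted p = 0.00140). Prkaa1, a catalytic subunit of the energy sensor AMPK, which marks CRY1 for breakdown, fell by 0.36 ± 0.11 (SE, limma adjusted p = 0.0226). The Prkaa1 call ended where the scaling ignored the 10 most abundant genes (limma adjusted p = 0.281) and on leaving out ob/ob 1, ob/ob 2, ob/+ 1, ob/+ 2 or ob/+ 3 (0.0641 to 0.102). Its log2 fold change was -0.24 with that scaling and -0.35 to -0.32 in these 5 fits. Casein kinase 1 delta (Csnk1d) and epsilon (Csnk1e), which phosphorylate PER, were not called (limma adjusted p = 0.770 and 0.200).

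Of 8 tested genes known to cycle in many mouse tissues, only Tef was called; Usp2, Tsc22d3, Tspan4, Wee1, Por, Noct and Ciart were not, and the median log2 fold change was 0.10. Lonrf3 was below the filter. For this list and the next, the shares of all tested genes were 10.6% called lower and 8.21% called higher. Of 6 tested glucocorticoid-induced genes 1 rose, the kinase Sgk1 (10.6 ± 1.07 FPKM in ob/ob, against 7.67 ± 1.56 in ob/+; SD, n = 4 each; 0.43 ± 0.13 SE, limma adjusted p = 0.0223), and its call ended in 8 of 21 alternatives. Leaving out ob/ob 1, ob/ob 2, ob/ob 4 or ob/+ 2 was among them (limma adjusted p = 0.0561 to 0.0776). Among 9 tested cAMP-responsive and immediate early genes, which answer stimulation or handling within minutes, 3 rose and none fell by limma, where 8.21% of all tested genes were called higher. They were Nr4a2 (0.54 ± 0.15 SE, limma adjusted p = 0.0128), Crem (0.44 ± 0.13 SE, limma adjusted p = 0.0146) and Fos. With the acinar level as covariate neither Nr4a2 nor Crem passed (limma adjusted p = 0.124 and 0.102), nor did they with equal sums per library (0.0521 and 0.119). Fos was at 94.3, 167, 36.6 and 14.0 FPKM in ob/ob 1 to 4, against 7.03, 6.22, 6.93 and 3.19 FPKM in ob/+ 1 to 4, with no overlap (log2 fold change 3.05 ± 0.78 SE, limma adjusted p = 0.0425). Its call ended without each single library except ob/ob 4 (limma adjusted p = 0.0542 to 0.117), while the log2 fold change was 2.51 to 3.67 over the 8 fits. Among the ob/ob libraries Fos was highest in ob/ob 2 and lowest in ob/ob 4, the library lowest in Dbp, Per3 and both REV-ERB genes. The part of these responses in the clock values was not tested.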

How the data were processed

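Per the labels' protocols, islets were freed with collagenase, purified on a density gradient and hand-picked, and libraries were made from 1 µg of total RNA. The deposited values are FPKM by the authors; the unit is inferred from the values (2 decimals, differing sums) and named neither in labels nor headers. The submitters' processing notes list Trimmomatic 0.36, DESeq2 1.20.0, mm10 and GRCm38, with no role for any; the sources used here give no aligner, quantifier or strand setting. Of 20715 genes 3314 had no value. The 11747 genes that reached 1 FPKM in 4 or more libraries entered limma 3.58.1 (R 4.3.3; eBayes with trend and robust) as log2(FPKM + 1), two-sided, Benjamini-Hochberg adjusted over all tested genes; fold changes on this scale understate those of low genes. The test was checked on simulated data with errors drawn independently for each gene and library. Effects shared by the genes of a library were not covered by that check. FPKM hold no counts, so no counting intervals are given. Named were the 10 clock genes, the other loop factors (1 listed gene is not reported here), up to 4 called genes of each further list and the 3 nearest genes to Arntl and Dbp; Csnk1d, Csnk1e, Thra, Sphk2, Hlf in its added test, and uncalled list genes were named after their values were seen. The genes and lists were chosen with earlier results of these data known. Positions are from GENCODE M21 (GRCm38), promoters from RefSeq. No libraries were duplicates (correlation of log2 values at most 0.993, at most 0.77% of values identical).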

Additional observations from a re-analysis of the deposited data

Results flagged for a closer look

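In 50 groups of 4 libraries (clock genes, other loop factors and the ratios of Arntl), 4 held a library that lay far from its group by Dixon's criterion, where chance gives about 1 in 20, or 2.5. Per2 was at 3.01 FPKM in ob/+ 4, with the other ob/+ libraries at 6.18 to 6.39. Rora was at 5.38 FPKM in the same library, the richest in acinar transcripts, with the others at 7.36 to 7.74. Dbp was at 27.6 FPKM in ob/+ 1, with the others at 9.29 to 12.4. Rorb was at 0.04 FPKM in ob/ob 2 and at 0.01 in the other ob/ob libraries, near the smallest value the files resolve.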

How the results depend on the processing

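The calls of Per3, Nr1d2, Tef, Bhlhe41 and Nampt held in each of 21 alternatives; 1 of these, without ob/+ 4 and ob/ob 1 together, was chosen after seeing the data. Called clock genes numbered 2 in the main result, 7 where scaling left out acinar genes, 4 without the robust option, 5 without ob/+ 4 and ob/ob 1, and 2 to 6 on leaving out each library. With acinar genes left out of the scaling, 7494 of 11747 tested genes were called, 7010 of them lower. Without the robust option 2130 were called. The replicate block gave 4 clock genes, with Arntl (limma adjusted p = 0.00153) and Dbp (0.000407) added, where 2674 of 11747 tested genes were called. Deviations of same-numbered libraries correlated at -0.22, 0.212, 0.172 and 0.124 for numbers 1 to 4, so not every pair deviated together and the numbers were not taken as pairing the samples. Called genes in all numbered 2208 (43.7% higher), 3429 with median centring, 3465 with upper-quartile scaling, 7494 with the acinar genes left out (6.46% higher), 3645 with equal sums (14.3% higher), 3313 with the acinar covariate, 4000 without ob/+ 4 and ob/ob 1, and 1434 (without ob/+ 1) to 4832 (without ob/+ 4) on leaving out each library. With the 10 most abundant genes left out 66.9% were higher. Over all tested genes the median log2 fold change was -0.07, and -0.33 and -0.23 with the acinar genes left out and with equal sums. Signs turned for Clock (0.0046, 10 most abundant genes left out), Cry2 (-0.036, without ob/+ 4 and ob/ob 1) and Arntl2 (-0.12 with the acinar genes left out, -0.0666 with equal sums, -0.058 without ob/+ 1 and up to 0.0874 in the 4 leave-one-out fits in which it passed the filter); the cause was not tested. The ratios of Arntl kept their direction, and no pseudocount or leaving out a library moved them by more than their spread. Depth is unknown, so the limits it sets cannot be given.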
